A study of Mus musculus with 16 samples.

Results

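The genes described here are 10 secreted immune mediators in mouse mammary epithelium: the neutrophil-attracting CXC chemokines Cxcl1, Cxcl2, Cxcl5 and Cxcl15, the chemokines Cxcl16 and Ccl20, the colony-stimulating factors Csf3 and Csf1, and the inflammatory cytokines Il6 and Tnf. They are 10 of the 17097 genes with a named probe set on the array. The genes were chosen by name, with earlier results from these arrays known, in which Cxcl2 was higher in knockout alveolar progenitors and myoepithelial cells and Csf3 in knockout alveolar progenitors. The probe set of each gene was selected by its mean over all 16 arrays, the highest being kept. Cxcl15 had 2 probe sets, Cxcl16 had 2, Csf1 had 4 and each of the others had 1. The known differences of Cxcl2 and Csf3 are therefore given as descriptions, with the values of the fit, and support nothing further.

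RNA was measured on Affymetrix mouse arrays in sorted mammary epithelial cells of 4 female mice, 10 weeks old, of the strain labelled C57BL/6J 129. Of these mice 2 were Cpeb2 -/- (knockout) and 2 were Cpeb2 +/+ (wild type), and all 4 carried Sox2-Cre +/+, a Cre active in the early embryo, so no group without the Cre was compared. Cpeb2 encodes an RNA-binding protein that acts on poly(A) tails and translation. Each mouse gave 4 sorted populations: non-clonogenic luminal cells, ductal progenitors and alveolar progenitors, which are luminal, and myoepithelial cells, the contractile outer layer. Mouse 1 of each genotype came from the same parents, and mouse 2 of each genotype from another pair of parents. With 2 arrays per genotype and population, the number of arrays limits the precision of every value. Levels are log2 values as deposited, so a difference of 1 log2 unit is a 2-fold change.

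Neutrophil-attracting chemokines are small secreted proteins that bind the receptor CXCR2 on neutrophils and draw them out of the blood, and CSF3 (also called G-CSF) drives the production and release of neutrophils in the bone marrow. Epithelial cells can make both, and their RNAs are classical targets of NF-kB downstream of the receptors for IL-1, IL-17, TNF and bacterial products. Their RNAs are short-lived and are known to be controlled after transcription, through AU-rich elements. CSF1 supports macrophages, which take part in the growth of mammary ducts, and CXCL16 attracts lymphocytes that carry CXCR6.

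Of the 10 genes, 5 lie on chromosome 5 (Cxcl5, Cxcl15, Cxcl1, Cxcl2 and Il6), as does Cpeb2. Cxcl15, Cxcl1 and Cxcl2 follow each other with 0 protein-coding genes between neighbours, and 3 lie between Cxcl5 and Cxcl15. Of the 1049 measured genes of that chromosome, 182 to 187 lie between Cpeb2 and the chemokines and 127 between Cpeb2 and Il6. The 150 bases before the annotated starts of the 3 adjacent chemokine genes are shown because Cxcl1 and Cxcl2 had the most similar values of any pair among the 10 genes, while their neighbour Cxcl15 followed another pattern. The sequences are RefSeq's, build GRCm38.p6, plus strand, at chr5:90891095-90891244 for Cxcl1, chr5:90903749-90903898 for Cxcl2 and chr5:90794384-90794533 for Cxcl15, and capitals mark matches to the kappaB consensus, the motif bound by NF-kB.
Cxcl1: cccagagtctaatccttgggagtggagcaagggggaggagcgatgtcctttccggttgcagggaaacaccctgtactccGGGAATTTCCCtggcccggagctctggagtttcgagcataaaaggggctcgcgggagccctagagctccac
Cxcl2: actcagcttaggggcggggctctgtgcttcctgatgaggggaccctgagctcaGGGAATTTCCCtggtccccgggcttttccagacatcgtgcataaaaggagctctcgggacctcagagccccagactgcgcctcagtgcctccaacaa
Cxcl15: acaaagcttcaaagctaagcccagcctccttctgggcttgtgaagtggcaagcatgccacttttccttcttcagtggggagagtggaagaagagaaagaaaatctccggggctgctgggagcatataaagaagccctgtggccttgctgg

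The capitals in Cxcl1 and Cxcl2 hold 2 overlapping matches each, read on either strand, which begin 71 bases before the start of Cxcl1 and 97 bases before that of Cxcl2. Around them the promoters share a run of 14 bases, gggaatttccctgg. In windows of 250 bases before to 50 after the start, 5 of the 7 genes with a promoter in the RefSeq table (Cxcl1, Cxcl2, Ccl20, Csf1 and Il6) held a match on either strand, and Cxcl15 and Tnf held none. Of all 32851 promoters of that length, 4.51% held one. The AP-1 motif TGANTCA, searched on both strands, was found in Il6 and in none of the other 6, against 7.81% of all promoters. A match describes these letters and is not a measured binding site.

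The labels were checked against markers. Krt5, a keratin of the myoepithelial layer, read 13.0 to 13.1 in the myoepithelial arrays and 6.97 to 8.39 in all others. The luminal keratin gene Krt8 read 12.4 to 12.5 in the luminal arrays and 11.3 to 11.6 in the myoepithelial arrays, a much narrower gap. The hormone receptor gene Esr1 read 10.6 to 12.0 in non-clonogenic luminal and ductal cells and 7.88 to 8.60 in alveolar progenitors. Kit, known from alveolar progenitors, read 10.5 to 11.1 there, 9.1 and 9.0 in wild-type and 6.73 and 7.82 in knockout ductal progenitors. Cpeb2 in non-clonogenic luminal cells read 8.33 and 8.66 in wild type and 6.42 and 7.67 in knockout. In alveolar progenitors it read 5.52 and 5.53 in wild type and 5.45 and 4.81 in knockout. In myoepithelial cells it read 5.41 and 6.03 in wild type and 5.25 and 4.71 in knockout. Cpeb2 was thus dim in these populations even in wild type, and under the lower quartile of the array in 1 knockout array of each. The position of its probe set relative to the deletion is not stated, so these values do not check the genotype fully. Replicate arrays correlated across all probe sets at r = 0.975 to 0.991. The ductal array of wild-type mouse 1 stood apart: the mean level of 8 fibroblast markers was 8.24 there and 5.71 to 7.24 in the other 15 arrays, and the knockout differences of these genes in ductal progenitors are given with and without it. Comparisons between populations include it. Without all arrays of that mouse, the 6 genes called between ductal and alveolar progenitors and the 6 called between myoepithelial and ductal cells were all called again, with 1 more gene in the former.

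**Figure D1:**
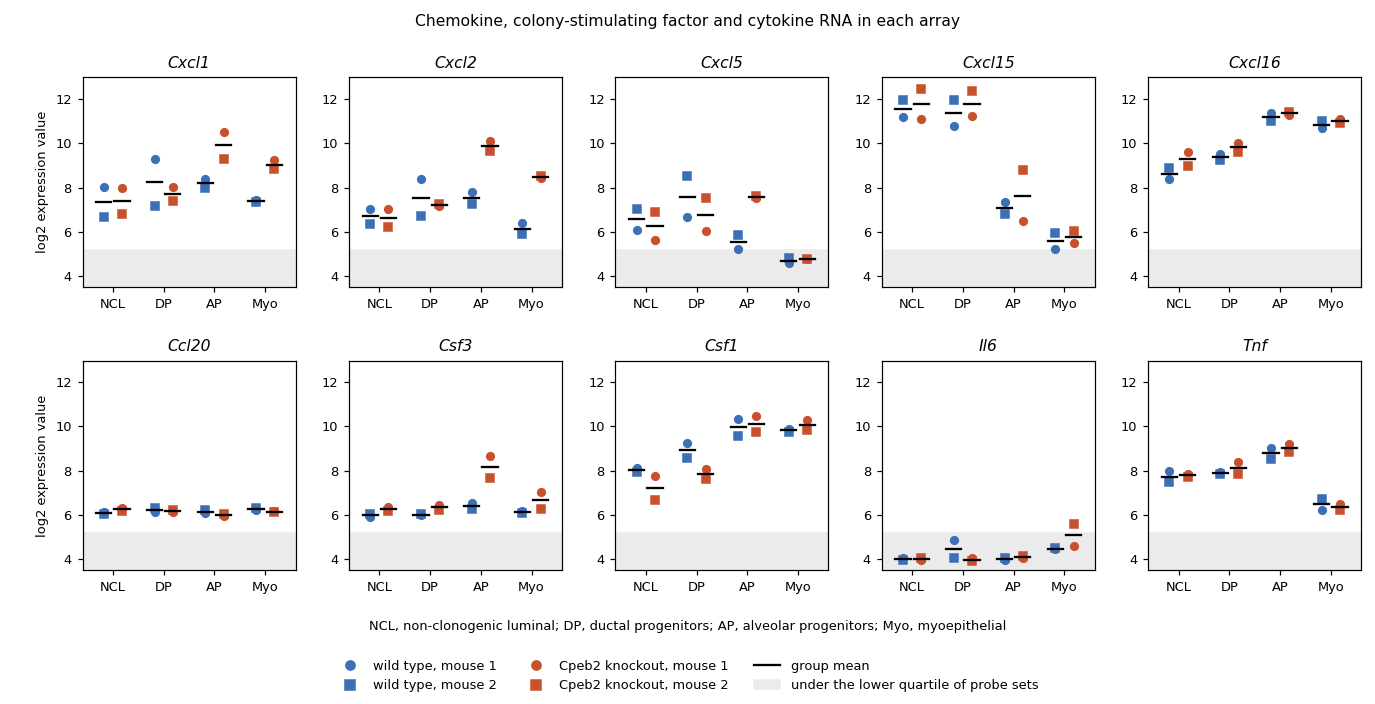
Log2 expression values of the 10 genes (1 panel each) in all 16 arrays, by population (horizontal axis) and genotype; circles are mouse 1, squares mouse 2, bars group means of 2 arrays, and the grey band marks values below the lower quartile of the arrays. Cxcl1 and Cxcl2 had their highest group means in knockout alveolar progenitors, Cxcl15 read 10.8 to 12.5 in non-clonogenic luminal and ductal cells, and Ccl20 stayed between 5.97 and 6.33.

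In alveolar progenitors, the milk-lineage luminal cells, Cxcl2 and Csf3 were higher in knockout, and the means of Cxcl1 and Cxcl5 lay above wild type as well. Cxcl2, which draws neutrophils through CXCR2, read 7.82 and 7.24 in wild-type mice 1 and 2 and 10.1 and 9.63 in knockout mice 1 and 2. Every knockout array lay above both wild-type arrays by more than the gap between replicates. The difference was 2.33 ± 0.44 log2 units (standard error of the fit, 2 mice per genotype), or 5.04-fold, with an adjusted p of 0.0408 (limma). It was 2.27 within the first parent pair and 2.40 within the other. The call was lost without either knockout mouse (adjusted p = 0.889 and 0.352) and without each single alveolar array (0.0975 to 0.333), while the difference stayed between 2.10 and 2.56.

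Csf3, the granulocyte colony-stimulating factor, read 6.52 and 6.29 in wild-type alveolar progenitors and 8.68 and 7.69 in knockout. The groups did not overlap, and knockout mouse 1 was the higher of the 2. The difference was 1.78 ± 0.27 log2 units (3.43-fold, limma adjusted p = 0.0143), with 2.16 in the first parent pair and 1.40 in the other. Without knockout mouse 1 it was 1.28 (adjusted p = 0.0675), and without wild-type mouse 1 or 2 it was 1.90 and 1.66 (adjusted p = 0.0649 and 0.150). The call was also lost in the 4 alveolar arrays alone (0.126) and without the alveolar array of knockout mouse 1 (0.0914) or of wild-type mouse 1 or 2 (0.0525 and 0.118).

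Cxcl5, another CXCR2 ligand, read 5.24 and 5.84 in wild-type alveolar progenitors and 7.51 and 7.61 in knockout, without overlap. Its difference of 2.02 ± 0.59 log2 units (4.06-fold) missed the threshold with an adjusted p of 0.202 (limma). With the parent pair as a block the standard error was 0.38 and the adjusted p was 0.0415, where 0.643% of all genes were called under that block. In the 4 alveolar arrays alone the adjusted p was 0.0325. These were the only 2 of 17 alternative settings that called it. With single mice or arrays left out, the difference stayed between 1.72 and 2.32.

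Cxcl1, the close relative of Cxcl2, read 8.40 and 7.98 in wild-type alveolar progenitors and 10.5 and 9.31 in knockout. The groups did not overlap, but the knockout arrays differed from each other by more than the wild-type arrays did. The difference of 1.73 ± 0.64 log2 units had a 95% interval of 0.33 to 3.14 and an adjusted p of 0.364 (limma), so it was not called. Within the parent pairs it was 2.13 and 1.33.

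The other 6 genes were not called in alveolar progenitors, and their differences lay between -0.13 and 0.55 log2 units. Cxcl15, a chemokine found mainly in epithelia, had the widest spread: it read 7.35 and 6.82 in wild type and 6.48 and 8.78 in knockout, so the knockout arrays lay on either side of the wild-type ones. Cxcl16 read 11.4 and 11.0 in wild type and 11.3 and 11.4 in knockout. Tnf differed by 0.25 (95% interval -0.30 to 0.80) and Csf1 by 0.15 (-0.67 to 0.96). In all, 2 of the 10 genes were called in this comparison, where 0.620% of the 17097 genes tested were. Since both calls were known when the genes were chosen, nothing is read from that count. The median of the limma differences of the 10 genes was 0.40, beside 0.0015 over all genes tested. For the same reason nothing is read from that median.

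Markers and stress genes in the same arrays give the setting of these values. The mean level of 22 immediate early and dissociation stress genes was 10.4 in each wild-type alveolar array and 10.9 in each knockout array, and all 22 had a higher mean in knockout. Of these, Fosl1, a subunit of AP-1, was called (1.47 ± 0.27, limma adjusted p = 0.0348). The median difference of the list was 0.34 in alveolar progenitors. It was 0.30 in non-clonogenic luminal cells (18 of 22 with a higher mean) and 0.25 in ductal progenitors (15 of 22). The part of this response in the chemokine differences was not tested. The 3′ less middle signal of Gapdh, a sign of RNA integrity, read 0.14 and 0.18 in wild type and 0.49 and 0.23 in knockout, and its part was not tested either.

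Several defining markers of neutrophils and other leukocytes were dim in all arrays, and others were not. The pan-leukocyte gene Ptprc read 3.81 to 3.98, the myeloid integrin gene Itgam 4.05 to 4.33, the neutrophil gene Ngp 4.34 to 4.78 and the CXCL receptor gene Cxcr2 4.74 to 5.06, all below the lower quartile of the array (5.08 to 5.18) in all 16 arrays. Of 16 neutrophil markers, 8 lay under that quartile in every array, and so did 5 of 20 markers of other leukocytes, whose mean level was 5.43 to 5.88. Among the latter, Cd74, an antigen presentation gene that epithelial cells can also make, read 6.61 to 8.93, Cd68 read 6.16 to 8.11 and Fcer1g 6.43 to 6.79. Among the 16 neutrophil markers, Ltf read 6.88 to 12.9, with 12.0 to 12.9 in alveolar progenitors, and Padi4 read 5.05 to 7.99. The mean level of the 16, which includes these, was 5.54 and 5.44 in wild-type and 5.63 and 5.55 in knockout alveolar progenitors. S100a8, an antimicrobial subunit of neutrophils that epithelial cells can also make, was the only neutrophil marker called there by limma (0.92 ± 0.18, adjusted p = 0.0457), with 5.02 and 5.53 in wild type and 6.48 and 5.90 in knockout. In bulk samples, more cells of a kind and more RNA per cell cannot be told apart.

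**Figure D2:**
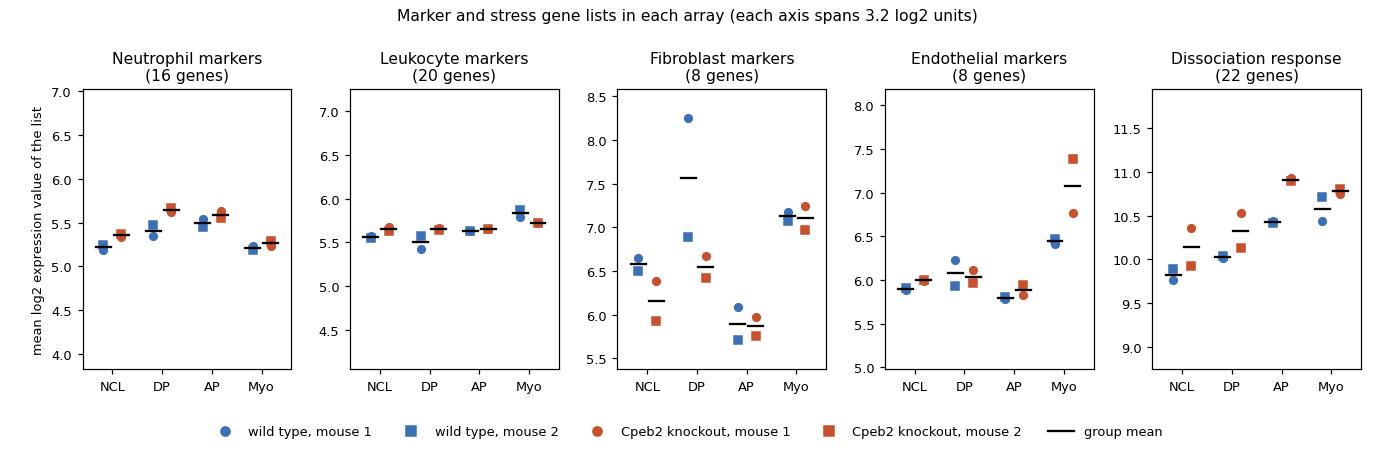
Mean log2 expression value of 5 gene lists in all 16 arrays, by population and genotype; circles are mouse 1, squares mouse 2 and bars the means of 2 arrays, and all vertical axes have the same span. Neutrophil markers stayed between 5.19 and 5.67, the fibroblast markers were highest in the ductal array of wild-type mouse 1 (8.24), and the dissociation genes read 10.4 in wild-type and 10.9 in knockout alveolar progenitors.

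In myoepithelial cells Cxcl2 was again called higher in knockout, and no other of the 10 genes was called. Cxcl2 read 6.38 and 5.91 in wild type and 8.41 and 8.51 in knockout. The replicates of each genotype lay within 0.5 log2 units of each other, and the groups were far apart. The difference was 2.32 ± 0.44 log2 units (4.98-fold, limma adjusted p = 0.0317), with 2.03 and 2.60 in the 2 parent pairs. The call was lost without either knockout mouse (adjusted p = 0.402 and 0.418), without wild-type mouse 2 (0.0593) and in the 4 myoepithelial arrays alone (0.400), with differences of 2.08 to 2.37. It was also lost without the myoepithelial array of knockout mouse 1 or 2 (0.128 and 0.145) or of wild-type mouse 2 (0.142).

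Cxcl1 read 7.46 and 7.36 in wild-type myoepithelial cells and 9.25 and 8.84 in knockout. Both knockout arrays lay above both wild-type arrays, and the difference of 1.63 ± 0.64 log2 units (3.10-fold, 95% interval 0.23 to 3.04) had an adjusted p of 0.274 (limma). Csf3 read 6.20 and 6.10 in wild type and 7.03 and 6.29 in knockout, a difference of 0.51 ± 0.27 (adjusted p = 0.432). Its parent pairs gave 0.84 and 0.19, so knockout mouse 1 carried most of it.

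Cxcl5 lay under the lower quartile in all 4 myoepithelial arrays (4.57 to 4.81), so a difference there could not be seen. Il6, the acute-phase cytokine, read 4.44 and 4.50 in wild type, 4.58 in knockout mouse 1 and 5.60 in knockout mouse 2, the only array of the 16 in which it passed the lower quartile. Its difference of 0.62 ± 0.27 was not called (adjusted p = 0.331). The mean of 8 endothelial markers was also highest in that array, at 7.38, beside 6.77 in knockout mouse 1 and 6.41 and 6.47 in wild type. All 8 endothelial markers had a higher mean in knockout myoepithelial cells, with a median difference of 0.59, and 1 was called (Kdr, 0.61 ± 0.13, limma adjusted p = 0.0495). The part of endothelial RNA in the Il6, Cxcl1 and Cxcl2 values there was not tested. Of the 10 genes 1 was called in myoepithelial cells, where 1.01% of all genes were, and nothing is read from that count because the call was known. The dissociation list read 10.4 and 10.7 in wild-type and 10.8 and 10.8 in knockout myoepithelial cells, with 0 of 22 called.

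**Figure D3:**
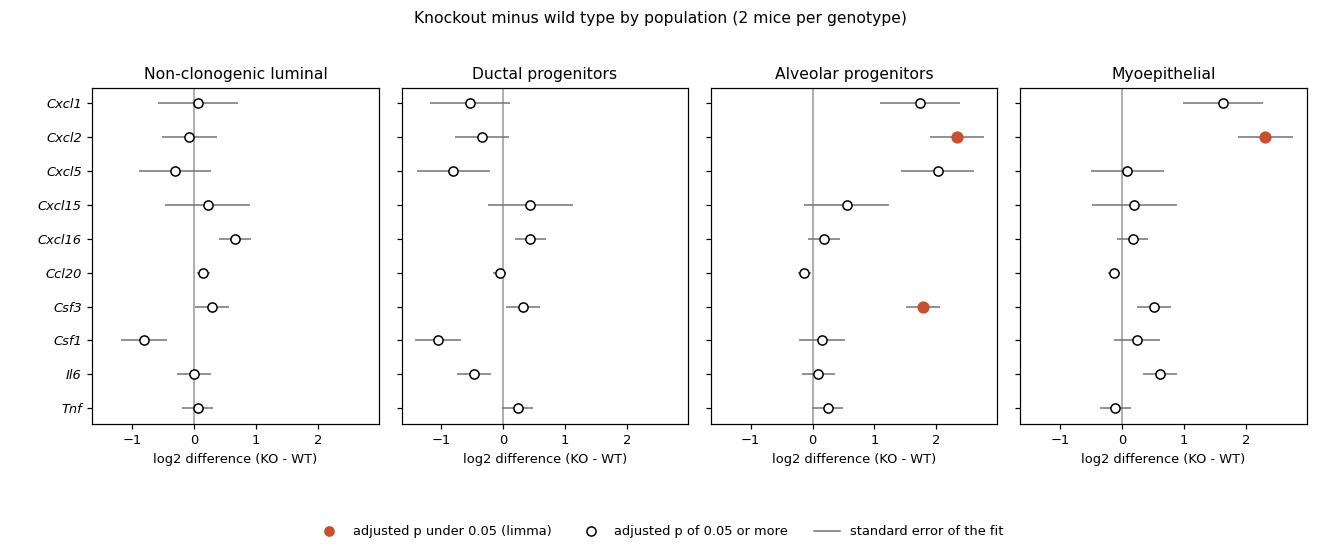
Difference in log2 expression value, knockout minus wild type (horizontal axis), of each gene in each population (1 panel each); bars are the standard error of the fit with 2 mice per genotype, and filled points passed an adjusted p of 0.05 in limma. Cxcl2 passed in alveolar progenitors (2.33) and myoepithelial cells (2.32) and Csf3 in alveolar progenitors (1.78).

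In non-clonogenic luminal cells, which carry the hormone receptors, none of the neutrophil chemokines was called. Cxcl2 read 7.03 and 6.37 in wild type and 7.04 and 6.21 in knockout, so mouse 1 of each genotype was high and mouse 2 low. Its difference of -0.08 had a 95% interval of -1.04 to 0.89. Cxcl1 read 8.01 and 6.65 in wild type and 7.98 and 6.81 in knockout, the same arrangement, with a difference of 0.07 (-1.34 to 1.47). Of the 10 genes 0 were called by limma, where 2.06% of all genes were. The unadjusted p was under 0.05 for 2919 of the 17097 genes tested and for 1 of the 10. That 1 was Cxcl16, with 8.39 and 8.87 in wild type and 9.60 and 8.98 in knockout (0.66 ± 0.25, adjusted p = 0.21). Its other probe set differed by 0.35 ± 0.32. Csf1 read 8.11 and 7.94 in wild type and 7.75 and 6.69 in knockout, and its difference of -0.81 ± 0.37 was not called (adjusted p = 0.297). The other probe sets of Csf1 differed there by -0.056, 0.015 and -0.146, and none was called.

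In ductal progenitors the neutrophil chemokines depended on 1 array. Cxcl2 read 8.37 in wild-type mouse 1, 6.72 in wild-type mouse 2, and 7.16 and 7.24 in knockout. Cxcl1 read 9.31, 7.15, 8.01 and 7.38 in the same order. In both cases wild-type mouse 1 was the highest of the 4, and this was the array with the highest fibroblast markers. With all 4 arrays Cxcl1 differed by -0.54 ± 0.64 and Cxcl2 by -0.34 ± 0.44, and without that array by 0.51 ± 0.61 and 0.45 ± 0.38 (limma adjusted p of 0.6 and over in each). Without wild-type mouse 2, Cxcl2 was called lower in knockout (-1.17, adjusted p = 0.0429). The share of fibroblast RNA in these values was not tested.

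Cxcl5 in ductal progenitors read 6.66 and 8.52 in wild-type mice 1 and 2 and 6.05 and 7.51 in knockout mice 1 and 2, so the mice of the second parent pair were the higher in each genotype. Its difference was -0.81 ± 0.59, and within the parent pairs -0.61 and -1.01. Without the ductal array of wild-type mouse 1 it was -1.71 ± 0.58 (limma adjusted p = 0.274), not called either. Il6 also read highest in that array, at 4.86, and its difference of -0.48 became -0.08 without it. Csf1, the macrophage growth factor, read 9.27 and 8.56 in wild type and 8.10 and 7.63 in knockout, without overlap. It was lower by 1.06 log2 units with a standard error of 0.37 (limma adjusted p = 0.0957), and with the parent pair as a block the adjusted p was 0.0192, where 9.39% of all genes were called. Without the array of wild-type mouse 1 the difference was -0.72 ± 0.44 (adjusted p = 0.555). The other 3 probe sets of Csf1 differed by -0.52, -0.25 and -0.40, and none was called. Of the 10 genes 0 were called in ductal progenitors, where 7.44% of all genes were. There 4802 of the 17097 genes tested had an unadjusted p under 0.05, and so did 1 of the 10 (Csf1).

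Averaged over the 4 populations, Cxcl2 and Csf3 were called higher in knockout. Cxcl2 differed by 1.06 ± 0.23 log2 units (2.08-fold, limma adjusted p = 0.0149) and Csf3 by 0.72 ± 0.15 (1.65-fold, adjusted p = 0.0094). Each genotype had 2 mice with 4 arrays each, and the fit took arrays of the same mouse as nearly independent (consensus correlation 0.0383). The p-values of every mean over the 4 populations therefore measure the spread between arrays more than that between mice. Csf3 was higher in knockout in all 8 comparisons of a knockout mouse with the wild-type mouse of its parent pair, by 0.11 at the least. Cxcl2 was higher in knockout in 6 of 8. These 8 comparisons come from 2 pairs of mice, so they are not independent of each other. Cxcl1 differed by 0.72 ± 0.34 (adjusted p = 0.197), and with the parent pair as a block its adjusted p was 0.0167. Under that block 5 of the 10 genes were called in place of 2, since Cxcl16 (0.37, adjusted p = 0.0447) and Csf1 (-0.37, adjusted p = 0.0245) passed as well. Of all genes, 10.2% were called in this mean without the block and 20.1% with it. Without the block, the other probe sets of Csf1 differed by -0.19, -0.05 and -0.15 in this mean. That of Cxcl16 differed by 0.22, and none of these was called. Without wild-type mouse 2, neither Cxcl2 (0.64, adjusted p = 0.0599) nor Csf3 (0.71, adjusted p = 0.0746) was called. Cxcl2 also lost its call without knockout mouse 1 or 2 (adjusted p = 0.140 and 0.0890), and Csf3 without wild-type mouse 1 (0.0681), while Cxcl1 was called without wild-type mouse 1 (1.23, adjusted p = 0.0434).

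Whether the knockout effect differed between populations was asked with an F test over the 4 within-population differences. Of the 10 genes 0 passed, where 0.667% of all genes did. An unadjusted p under 0.05 was found for 2872 of the 17097 genes tested and for 3 of the 10. These were Cxcl2 (limma adjusted p = 0.0647), Csf3 (0.141) and Cxcl5 (0.222). With the parent pair as a block Cxcl2 passed (adjusted p = 0.0368), as did 0.626% of all genes, and without wild-type mouse 2 it passed as well. The populations come from the same 4 mice, so the 4 comparisons are not independent of each other.

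**Figure D4:**
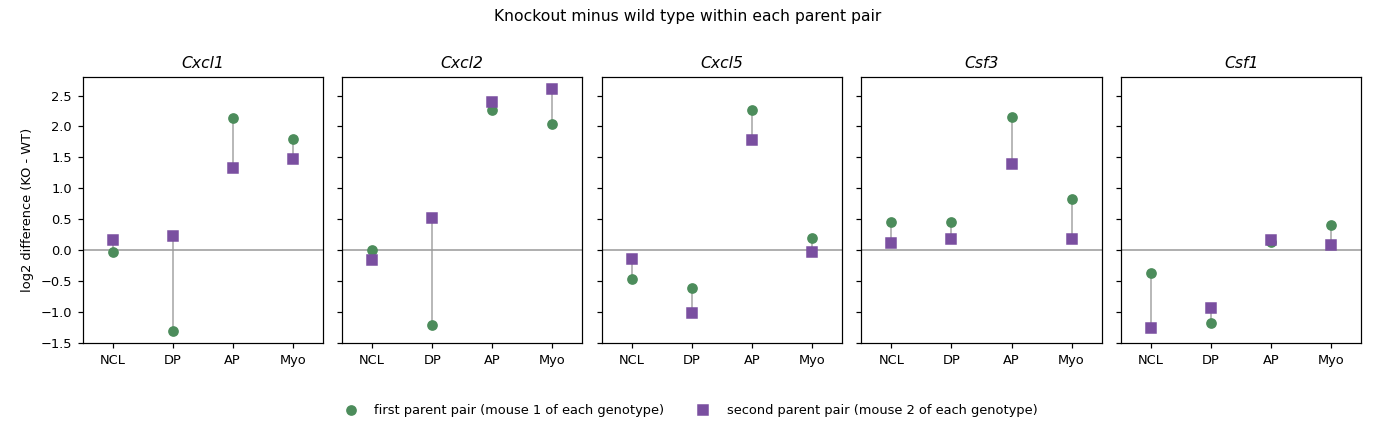
Difference in log2 expression value, knockout minus wild type (vertical axis), within each parent pair for 5 genes (1 panel each) by population; circles are the first parent pair, squares the other, and a line joins the pairs. Cxcl1, Cxcl2, Cxcl5 and Csf3 were higher in both pairs in alveolar progenitors, by 1.33 to 2.40, and the pairs disagreed in sign for Cxcl1 and Cxcl2 in ductal progenitors.

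The genes were spread over the populations in different ways. In the mean of both genotypes, Cxcl15 was high in non-clonogenic luminal and ductal cells and low elsewhere. It read 11.1 to 12.5 in non-clonogenic luminal cells, 10.8 to 12.4 in ductal progenitors, 6.48 to 8.78 in alveolar progenitors and 5.20 to 6.06 in myoepithelial cells. The first 2 did not differ beyond their spread (0.10 ± 0.48). Non-clonogenic luminal cells lay 4.32 ± 0.48 above alveolar progenitors (20.0-fold, limma adjusted p = 2.39e-05), and myoepithelial cells 1.68 ± 0.48 below them (adjusted p = 0.0158). The latter call was lost without knockout mouse 2 (0.0746) or wild-type mouse 1 (0.123). The other probe set gave 4.38 ± 0.37 for the first of these differences. For the second, it placed myoepithelial cells 0.63 ± 0.37 below alveolar progenitors, which was not called (limma adjusted p = 0.214). In the non-clonogenic luminal and ductal arrays, the mice of the second parent pair lay above those of the first in each genotype.

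Csf1 and Cxcl16 ran the opposite way. Csf1 read 6.69 to 8.11 in non-clonogenic luminal cells, 7.63 to 9.27 in ductal progenitors, 9.58 to 10.5 in alveolar progenitors and 9.77 to 10.3 in myoepithelial cells. Alveolar progenitors lay 2.41 ± 0.26 above non-clonogenic luminal cells (5.32-fold, limma adjusted p = 1.99e-05), and alveolar and myoepithelial cells did not differ beyond their spread (0.08 ± 0.26). All 4 probe sets of Csf1 were called higher in alveolar progenitors than in non-clonogenic luminal cells, by 1.01 to 2.41. Cxcl16, which exists as a membrane-bound and a shed chemokine, read 8.39 to 9.60 in non-clonogenic luminal cells and 11.0 to 11.4 in alveolar progenitors. It was 2.31 ± 0.18 higher in the latter (4.96-fold, adjusted p = 1.06e-06), and its other probe set gave 2.15 ± 0.22.

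Tnf, the prototype NF-kB activating cytokine, was highest in alveolar progenitors (8.53 to 9.21) and lowest in myoepithelial cells (6.24 to 6.71), without overlap. Alveolar progenitors lay 1.15 ± 0.17 above non-clonogenic luminal cells, 0.90 ± 0.17 above ductal progenitors and 2.49 ± 0.17 above myoepithelial cells (5.61-fold, limma adjusted p = 3.03e-07). Between ductal and alveolar progenitors its call was lost without knockout mouse 2 (adjusted p = 0.0574). Non-clonogenic luminal cells (7.49 to 7.96) and ductal progenitors (7.86 to 8.39) overlapped. Cxcl5 was lowest in myoepithelial cells, 2.44 ± 0.41 below ductal progenitors (5.44-fold, adjusted p = 0.0004), as a bound since it lay under the lower quartile there. Its 3 luminal populations did not differ beyond their spread in the mean of both genotypes. In the wild-type arrays alone, Cxcl5 in ductal progenitors lay 2.05 ± 0.58 above alveolar progenitors (limma adjusted p = 0.0845, not called). In non-clonogenic luminal cells it lay 1.02 ± 0.58 above alveolar progenitors there (adjusted p = 0.344). Ccl20, which attracts cells with CCR6, varied by 0.36 log2 units over all 16 arrays, and no comparison called it.

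For Cxcl1, Cxcl2 and Csf3 the differences between alveolar progenitors and the other luminal populations were smaller in the wild-type arrays alone. The F test for a knockout effect that differs between populations gave these genes adjusted p-values of 0.0647 for Cxcl2, 0.141 for Csf3 and 0.317 for Cxcl1 (limma). In the mean of both genotypes Cxcl2 was 2.03 ± 0.31 higher in alveolar progenitors than in non-clonogenic luminal cells (4.09-fold, limma adjusted p = 0.000299) and 1.32 ± 0.31 higher than in ductal progenitors (adjusted p = 0.00785). In the wild-type arrays alone, the differences fell to 0.83 ± 0.52 (adjusted p = 0.411) and to a ductal minus alveolar difference of 0.01 ± 0.52 (adjusted p = 0.99). Csf3 was 1.17 ± 0.19 higher in alveolar progenitors than in non-clonogenic luminal cells with both genotypes, and 0.42 ± 0.13 in wild type alone (adjusted p = 0.0772). Cxcl1 gave 1.69 ± 0.45 (adjusted p = 0.0129) with both and 0.86 ± 0.69 (adjusted p = 0.542) in wild type alone. Without knockout mouse 1 or 2, the Cxcl1 difference (adjusted p = 0.114 and 0.111) and the ductal to alveolar difference of Cxcl2 (0.172 and 0.0979) lost their calls. Cxcl15, Cxcl16, Csf1 and Tnf kept their calls between non-clonogenic luminal and alveolar cells in wild type alone.

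Counted over the 10 genes, 7 were called between non-clonogenic luminal cells and alveolar progenitors (1 higher and 6 lower in the former), where 28.5% of all genes were, and 6 between ductal and alveolar progenitors, where 22.0% of all genes were. Myoepithelial cells differed in 6 genes from non-clonogenic luminal cells, in 6 from ductal progenitors and in 6 from alveolar progenitors, beside 45.0%, 41.7% and 36.5% of all genes. Non-clonogenic luminal cells and ductal progenitors differed in 0 of 10 genes by limma, where 0.795% of all genes were called. Between these populations 3 of the 10 had an unadjusted p under 0.05, beside 1098 of the 17097 genes tested. The median difference of the 10 genes was -1.16 for non-clonogenic luminal minus alveolar cells, beside 0.03 over all genes. Il6 was called higher in myoepithelial cells than in each luminal population, but it lay under the lower quartile in 15 of 16 arrays, and without knockout mouse 2 none of the 3 calls held (adjusted p = 0.0601, 0.333 and 0.113 against non-clonogenic luminal, ductal and alveolar cells).

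Over the 16 arrays, Cxcl1 and Cxcl2 were each other's most similar gene among all measured (Pearson r = 0.937). The arrays share mice and populations, so these correlations are descriptions. After Cxcl1, the genes most like Cxcl2 were Rel, an NF-kB subunit (r = 0.892), and Gngt2 (0.877), and after Cxcl2 those most like Cxcl1 were Map4 (0.913) and Stx3 (0.901). Csf3 correlated with Cxcl2 at 0.812 and with Cxcl1 at 0.763. Cxcl15 was most like Tph1 (0.992), Gpx3 (0.984) and the haptoglobin gene Hp (0.976). It correlated at 0.657 with Cxcl5, at -0.465 with its neighbour Cxcl1 and at -0.321 with Cxcl2. Cxcl16 and Csf1 correlated at 0.851, and Cxcl15 and Csf1 at -0.888. The genes most like Csf1 were Wwtr1 (0.968) and Hivep3 (0.962), and those most like Cxcl16 were Creb5 (0.977) and Rnf19a (0.964). Tnf was most like Dock8 (0.976), Ckmt1 (0.971) and the TNF-induced gene Tnfaip2 (0.960). The values of Cxcl5 were most like those of Dram2 (0.847), and those of Il6 like Slc10a6 (0.945).

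Among 9 measured receptors of these mediators, those on neutrophils and lymphocytes were dim: Cxcr2 and Cxcr6 lay under the lower quartile in every array, and Csf3r, the CSF3 receptor gene, read 4.93 to 5.41. The receptors that epithelial cells carry were measurable. Il6ra, the IL-6 receptor gene, read 8.17 to 9.35 in wild type and 9.32 to 10.2 in knockout over all populations. In the mean of the 4 populations Il6ra was 0.92 ± 0.15 higher in knockout (limma adjusted p = 0.00384), its signalling partner gene Il6st 0.58 ± 0.13 higher (0.015) and the TNF receptor gene Tnfrsf1a 0.36 ± 0.07 higher (0.00975). Csf1r, counted among the leukocyte markers as well, read 5.93 to 6.49 over all arrays. Of the 20 leukocyte markers, 18 had a higher mean in knockout ductal progenitors. In that population 3 of the 9 receptors were called higher, where 7.44% of all genes were called: Il6st (1.06 ± 0.24), Il6ra (1.03 ± 0.29) and Csf1r (0.49 ± 0.09). Without the ductal array of wild-type mouse 1 they differed by 0.70, 0.77 and 0.42 and none was called (limma adjusted p = 0.278, 0.382 and 0.161). Without that array 0 of the 10 ductal calls in all lists held, and 0.275% of all genes were called. In alveolar progenitors and myoepithelial cells 0 of 9 receptors were called.

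Within single populations, 0.620% to 7.44% of all genes were called for the knockout. Of 12 measured NF-kB subunits, inhibitors and kinases, 0 were called within any population, with medians of 0.10 in alveolar progenitors and 0.44 in myoepithelial cells, and in the mean over populations Relb (0.37 ± 0.09, limma adjusted p = 0.021) and the inhibitor gene Nfkbia (0.35 ± 0.09, adjusted p = 0.0351) rose. Of 21 other NF-kB targets and feedback genes, Lrg1, an acute-phase glycoprotein gene, rose in alveolar progenitors (1.87 ± 0.34, adjusted p = 0.03). The antibacterial siderophore-binding gene Lcn2, which neutrophils and epithelia make, fell by 2.46 in non-clonogenic luminal cells (standard error 0.17, adjusted p = 7.9e-05). In the mean over populations 3 of the 21 rose: Zc3h12a (0.62 ± 0.13), Gadd45b (0.61 ± 0.17) and Sod2 (0.32 ± 0.09). Zc3h12a encodes an RNase that degrades Il6 and other cytokine RNAs. The mean of Lcn2 was lower by 0.54, and within single populations Lcn2 was called in non-clonogenic luminal cells only. Of 9 measured factors that bind AU-rich elements or decay cytokine RNAs, 0 were called in any knockout comparison.

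Of 20 measured receptors and adaptors that feed NF-kB, Traf2 rose in ductal progenitors (0.83 ± 0.12, limma adjusted p = 0.00505; 0.76 and 0.0634 without the ductal array of wild-type mouse 1) and none was called in alveolar progenitors or myoepithelial cells. Of 28 other chemokine ligands, 2 were called in single populations: Cxcl9, an interferon-induced chemokine, fell by 1.63 in ductal progenitors (standard error 0.30, adjusted p = 0.0133), which became 0.150 without that array, and Cxcl12, which retains CXCR4-bearing cells, rose by 1.22 ± 0.24 in myoepithelial cells (adjusted p = 0.0354). The endothelial markers were also higher in those knockout arrays, as given for Il6, and their part in the Cxcl12 difference was not tested. Of 23 other cytokines, Il1rn, the antagonist of IL-1, fell by 1.15 in alveolar progenitors (standard error 0.19, adjusted p = 0.0201), and Il18 fell by 1.06 in non-clonogenic luminal cells and by 0.91 in ductal progenitors (adjusted p = 0.108 in the latter without the array of wild-type mouse 1). In the mean over populations Lif (0.66 ± 0.14) and Clcf1 (0.41 ± 0.09), both of the IL-6 family, rose and Il18 fell by 0.40. The dissociation list was called in 6 of 22 genes in that mean, where 10.2% of all genes were called, all 6 higher, among them Socs3 (0.96 ± 0.23), Klf4 (0.81 ± 0.16), Fosl1 (0.77 ± 0.14) and Junb (0.72 ± 0.20), and its part in the differences of the mediators was not tested.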

How the data were processed

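The submitters deposited log2 expression values per probe set for 16 arrays, and the submitters' processing notes name RMA and limma without roles or versions. Background and batch correction are not stated. Per the labels' protocols, 15 ng of RNA was amplified and 8 µg of cDNA labelled. The table held 45141 probe sets; 28898 had 1 gene symbol in the supplied array annotation, 551 several and 15588 none, and 104 were controls. The brightest probe set per gene gave 17097 genes.

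All arrays entered 1 limma model (3.58.1, R 4.3.3, statmod 1.5.0) of 8 group means, the mouse as a random block (consensus correlation 0.0383), eBayes with trend (residual degrees of freedom 8, prior 3.90). A gene counted as called if its p, adjusted over all genes (Benjamini-Hochberg), was under 0.05. In data simulated for the alveolar comparison, 91 of 100 changes of 2 log2 units and 70 of 100 of 1 were recovered, and 8 unchanged genes were called. The simulated noise was independent between arrays, with no effect of mouse or parents, so these rates need not hold for the real arrays.

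The genes and the 12 lists (213 genes, 193 measured) were chosen with earlier results of these data known. All 10 genes are named, with up to 4 called genes per list and comparison and the 3 genes most correlated with each gene that spanned over 1 log2 unit. The replicate numbers mark shared parents in the labels; deviations of paired arrays correlated at 0.07, -0.01, 0.06 and -0.04 in the 4 populations. Whether the 2 mice of a group were processed apart is not given, so p-values measure the spread between these samples. The lower quartile of each array's values served as the mark of low signal. Alternatives were fits of every probe set or their mean, with no mouse block, the parent pair as a block, array weights, quantile normalization, no trend, a filter at the lower quartile, single populations, wild type alone, and each mouse or array left out.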

Additional observations from a re-analysis of the deposited data

How the results depend on the processing

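Counts of called genes among the 10 moved by over 1.5 times as follows. In alveolar progenitors the count of 2 became 1 with every probe set fitted or with no trend, and 0 to 1 over the leave-outs that moved it. Cxcl2 then had adjusted p = 0.0511 and 0.0583. In myoepithelial cells the count of 1 became 0 with array weights (Cxcl2, adjusted p = 0.0714), in that population's arrays alone, and 0 to 1 over leave-outs. With the parent pair as a block, the count became 1 in ductal progenitors, 5 in the mean of 4 populations and 1 in the F test, and in population comparisons Cxcl1 gained calls for ductal minus alveolar (adjusted p = 0.017), myoepithelial minus non-clonogenic luminal (0.0277) and myoepithelial minus alveolar (0.0412); beyond these and Cxcl5 in alveolar progenitors (0.0415) the block changed no call of the 10 genes, and no call was lost under it. Array weights gave 1 in the F test. Leave-outs gave 0 to 1 in ductal progenitors, 0 to 2 in the mean and 0 to 1 in the F test. Wild-type arrays alone gave 4 (non-clonogenic luminal minus alveolar), 2 (ductal minus alveolar) and 1 (myoepithelial minus alveolar, 3 to 6 over leave-outs), and among called differences only Cxcl2 in ductal minus alveolar changed sign (0.0147). The cause of these changes was not tested, beyond the smaller number of arrays in the subsets.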
